A study of Mus musculus with 6 samples.

Results

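A set of 7 genes of the Brunner glands and of gastric-type mucosa was followed in mouse duodenum: the secreted mucin Muc6, the trefoil peptides Tff1 and Tff2, the gastrokines Gkn2 and Gkn3, the pepsinogen Pgc and the small secreted protein gene Wfdc10. They are 7 of the 22180 genes that the platform annotation pairs with a probe set of their own. The genes were chosen by name, with the genotype difference on these same arrays already known for at least some of them, and each had 1 probe set under a single symbol. Their differences between genotypes are therefore given as a description, without a test. Duodenal RNA was taken at 10 weeks of age from 3 VDR-null mice, which lack the vitamin D receptor, and from 3 wild-type mice, all on a C57Bl/6 background, with 1 array per mouse. The labels name neither the targeted allele nor the sex or diet of the mice. Values are log2 signals, and an increase of 1 is a doubling of the signal.

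Brunner glands are mucous glands in the submucosa of the proximal duodenum, next to the pylorus, and their alkaline secretion protects the mucosa from gastric acid. Their cells make the gel-forming mucin MUC6 together with the trefoil peptide TFF2, a pair that is also made by the mucous neck and pyloric gland cells of the stomach. TFF1 and the gastrokines are best known from the stomach lining, where GKN2 forms a complex with TFF1. The labels do not say at what distance from the pylorus the duodenum was cut.

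The arrays had medians between 5.15 and 5.19, and 5.17, the median of all values, was taken as the level below which a signal is dim. Testing required a signal above this level on 3 or more of the 6 arrays, a filter that 13174 genes and 6 of the 7 members passed, the exception being Gkn2. Vdr read 10.99, 10.86 and 10.85 on VDR-null arrays and 10.72, 10.95 and 11.11 on wild-type arrays. Its probe set thus did not separate the genotypes, and as the labels do not name the deleted part of the gene, it does not check the genotypes. Enterocyte brush border genes were detected on all arrays, as a duodenal sample should show, while VDR-null replicate 1 and wild-type replicate 1 stood apart in them. Relative to each gene's mean over the 6 arrays, the 14 brush border genes averaged 0.89, 0.39 and -0.08 on VDR-null arrays and -1.41, 0.17 and 0.04 on wild-type arrays.

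All 7 members had a lower mean signal in VDR-null than in wild-type duodenum, as 56% of all tested genes did. In 4 of them, Gkn3, Wfdc10, Pgc and Tff1, every VDR-null array lay below every wild-type array, a pattern found in 6.22% of the tested genes. Since the genes were chosen with this difference known, the counts are not read against these shares. The median difference of the 6 members that passed the filter was -0.96 on the log2 scale, against -0.0264 over all tested genes. limma placed 0 of the 13174 genes, 0%, past an adjusted p of 0.05, while 689 had an unadjusted p below 0.05, 399 of them lower and 290 of them higher in VDR-null mice. In whole tissue, fewer cells of a type and less RNA per cell cannot be told apart.

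**Figure D1:**
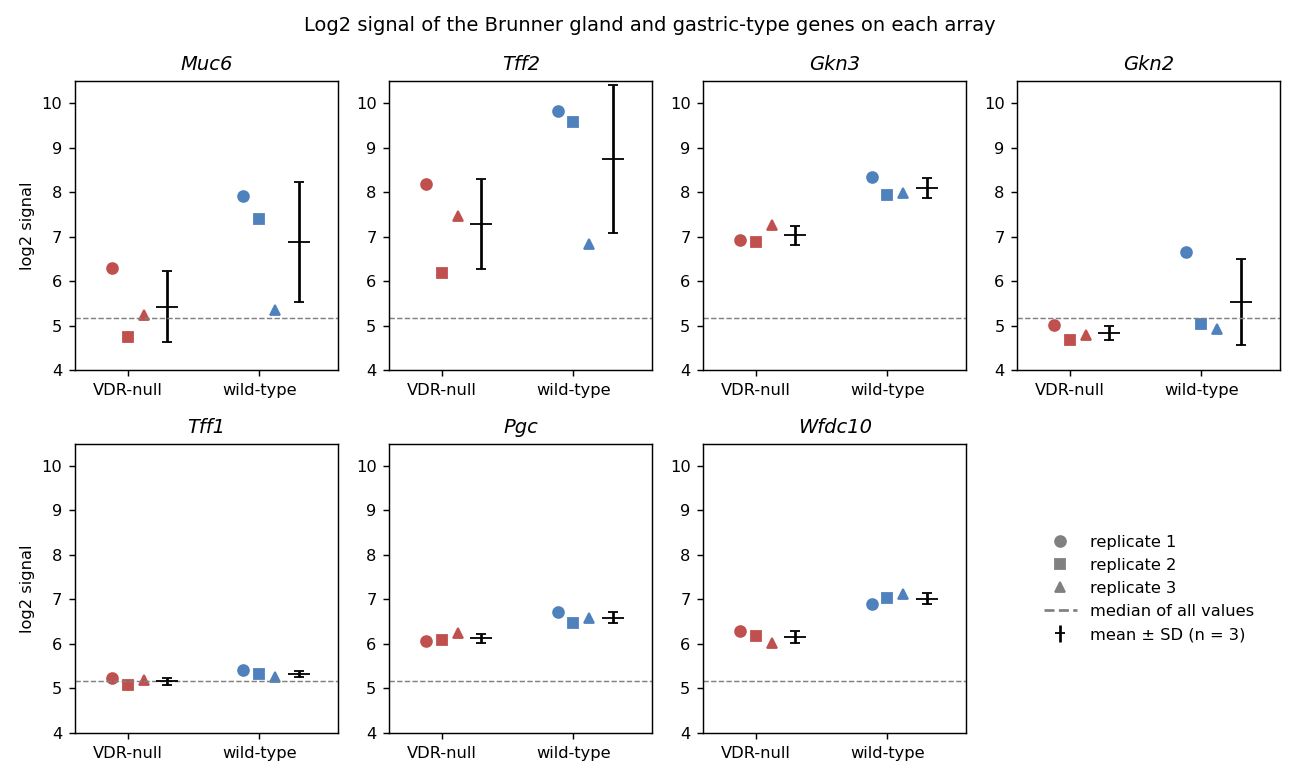
Log2 signal (vertical axis) of the 7 genes on each array, VDR-null on the left and wild-type on the right of each panel, with the mean and SD (n = 3) beside the points and the median of all values, 5.17, as a dashed line. Gkn3, Pgc and Wfdc10 form tight and separate groups, Tff1 separates by a small gap close to the dashed line, and Muc6 and Tff2 spread widely within both genotypes.

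The main products of the Brunner gland had the largest differences among the members and also the largest spread between mice. Tff2, a trefoil peptide that is packed with the mucin and stabilises the mucus, read 8.18, 6.19 and 7.46 on VDR-null arrays and 9.83, 9.59 and 6.84 on wild-type arrays. The first and second wild-type replicates lay above all VDR-null arrays, and wild-type replicate 3 lay below VDR-null replicates 1 and 3, so the genotypes overlapped. Tff2 averaged 7.28 ± 1.01 in VDR-null and 8.75 ± 1.66 in wild-type duodenum (SD, n = 3 each), a difference of -1.47 (2.78-fold lower in VDR-null), which is within the spread between wild-type mice. Leaving out wild-type replicate 3 gave -2.43, leaving out wild-type replicate 1 gave -0.93, and leaving out VDR-null replicate 2 also gave -0.93.

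Muc6, the gel-forming mucin of these glands, read 6.30, 4.74 and 5.23 on VDR-null arrays and 7.91, 7.41 and 5.36 on wild-type arrays. Wild-type replicate 3 was again the low one of its group, and it lay below VDR-null replicate 1. The means were 5.43 ± 0.80 in VDR-null and 6.89 ± 1.35 in wild-type duodenum (SD, n = 3 each), a difference of -1.47 (2.76-fold lower in VDR-null). VDR-null replicate 2 was dim, and VDR-null replicate 3 and wild-type replicate 3 lay close to the dim level. The difference was -2.23 without wild-type replicate 3 and -0.96 without wild-type replicate 1.

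Gkn3, a gastrokine that in the mouse stomach is made by mucous neck cells, separated the genotypes with little spread. It read 6.93, 6.88 and 7.27 on VDR-null arrays and 8.35, 7.93 and 7.98 on wild-type arrays. The lowest wild-type array lay 0.66 above the highest VDR-null array. Its difference of -1.06 (2.09-fold lower in VDR-null) compares with an SD of 0.21 among VDR-null and 0.23 among wild-type mice (n = 3 each). It stayed between -1.18 and -0.93 when any 1 array was left out, and was -0.88 without both replicate 1 arrays.

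Gkn2, the gastrokine that binds TFF1 in the stomach, was above the dim level on 1 array of 6. It read 5.01, 4.69 and 4.80 on VDR-null arrays and 6.65, 5.03 and 4.92 on wild-type arrays. Wild-type replicate 1 alone was high, and the other 5 arrays lay within the dim range. The difference of the means, -0.70, was -0.14 without wild-type replicate 1. Gkn1, the remaining gastrokine, was at 4.95, 4.95 and 5.16 on VDR-null arrays and at 5.25, 5.14 and 5.16 on wild-type arrays, and was not tested.

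Tff1, the trefoil peptide of gastric surface cells, stayed close to the dim level on every array. It read 5.23, 5.07 and 5.18 on VDR-null arrays and 5.41, 5.33 and 5.26 on wild-type arrays. The genotypes were separate by only 0.03, and the difference of -0.17 (1.13-fold lower in VDR-null) is the smallest among the 7 genes. The annotated span of Tff1 overlaps that of a long noncoding RNA, Gm15318, and their signals may not be separable.

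Pgc, progastricsin, the precursor of a gastric aspartic protease, read 6.07, 6.08 and 6.24 on VDR-null arrays and 6.71, 6.47 and 6.59 on wild-type arrays. All wild-type arrays were above all VDR-null arrays, by a gap of 0.23. The means were 6.13 ± 0.10 in VDR-null and 6.59 ± 0.12 in wild-type duodenum (SD, n = 3 each), a difference of -0.46 (1.37-fold lower in VDR-null). Leaving out 1 array gave values between -0.52 and -0.40.

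Wfdc10 belongs to the whey acidic protein (WFDC) family, whose better-known members inhibit proteases. It read 6.28, 6.18 and 6.03 on VDR-null arrays and 6.90, 7.04 and 7.13 on wild-type arrays. Its groups were as tight as those of Pgc and lay 0.62 apart. The difference was -0.86 (1.81-fold lower in VDR-null), between -0.92 and -0.79 when any 1 array was left out and -0.98 without both replicate 1 arrays. The annotated spans of Wfdc10 and its neighbour Wfdc9 overlap. The separate probe set of Wfdc9 was dim, at 4.42, 4.72 and 4.46 on VDR-null arrays and 4.48, 4.42 and 4.27 on wild-type arrays.

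The members were next compared for how they varied among mice of 1 genotype, a measure that does not contain the difference between genotypes. Each array's deviation from the mean of its genotype was taken. Tff2 deviated by 0.90, -1.09 and 0.18 on VDR-null arrays and by 1.08, 0.83 and -1.91 on wild-type arrays. Muc6 deviated by 0.87, -0.68 and -0.19 on VDR-null arrays and by 1.02, 0.52 and -1.53 on wild-type arrays. Both genes were thus high in the same mice of both genotypes, and the order of the 6 deviations was the same.

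**Figure D2:**
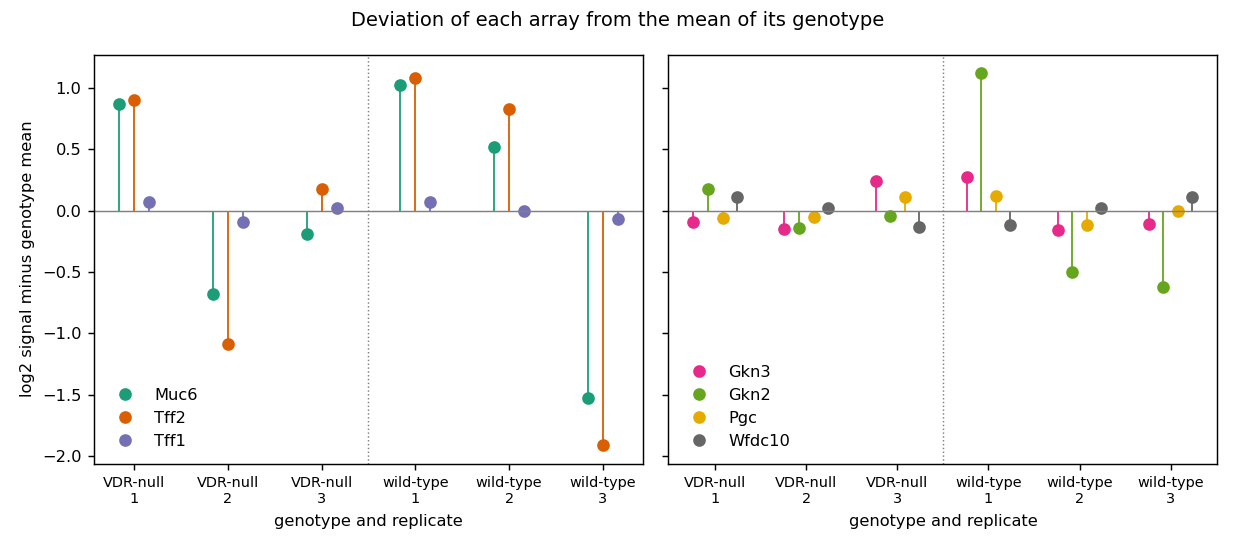
Deviation of each array from the mean of its genotype (vertical axis, log2 units) for Muc6, Tff2 and Tff1 on the left and for Gkn3, Gkn2, Pgc and Wfdc10 on the right, with 1 point per gene and array. Muc6 and Tff2 rise above and drop below 0 together except on VDR-null replicate 3, where they read -0.19 and 0.18, and Gkn2 stands out at 1.12 on wild-type replicate 1.

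Over the 6 arrays the deviations of Muc6 and Tff2 correlated with Pearson's r = 0.98 and Spearman's rho = 1.0 (n = 6). The exact permutation p within genotypes was 0.0278 for both, the smallest that the 36 arrangements allow, and 0.233 for r and 0.292 for rho after Benjamini-Hochberg adjustment over the 21 pairs of members. Without the 2 arrays farthest from the median deviation of Muc6, wild-type replicates 1 and 3, r was 0.94. In such checks 1 gene of the pair picked the arrays, which therefore differ between pairs. Tff1 moved in a similar order at a far smaller amplitude, from -0.09 to 0.07, with r = 0.88 against Muc6 and r = 0.89 against Tff2 (exact permutation p = 0.0556 each, adjusted p = 0.233, n = 6). Its rho was 0.89 against both (exact permutation p = 0.0833, adjusted p = 0.417). Without the arrays farthest from the median of Muc6, r was 0.84 against Muc6 (wild-type replicates 1 and 3 left out). Against Tff2, with the arrays picked by Tff1 instead, it was 0.54 (VDR-null replicate 2 and wild-type replicate 3 left out).

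Gkn3 and Pgc formed another pair, with r = 0.94 and rho = 0.83 (exact permutation p = 0.0556 and 0.139, adjusted p = 0.233 and 0.417, n = 6). Both were highest in wild-type replicate 1 and VDR-null replicate 3 of their genotypes, and r dropped to 0.62 when these arrays were left out. Against Muc6, Gkn3 had r = 0.33 and Pgc r = 0.04. Wfdc10 ran the other way, with r between -0.87 against Gkn3 and -0.31 against Muc6, although its deviations were all within 0.13 of its genotype mean. These negative values depend on which arrays enter. The 2 arrays farthest from the median deviation of the partner gene were left out together, and these arrays differed between some partners. All 6 correlations of Wfdc10 were then above 0, from 0.09 against Tff1 to 0.99 against Gkn3. Arrays picked by Wfdc10 itself were not tried for every partner, so it is not settled that the sign turns whichever gene picks them. Of the 21 pairs, 15 had r above 0, 6 below, all of them with Wfdc10, and 0 passed an adjusted p of 0.05 by the exact permutation test, with 2, Muc6 with Tff2 and Gkn2 with Tff1 (r = 0.72), at an unadjusted p below it. If the arrays were normalized as 1 set, which no source used here states, their values are not fully independent. The dim Gkn2 and Tff1 carry little signal for such a comparison.

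**Figure D3:**
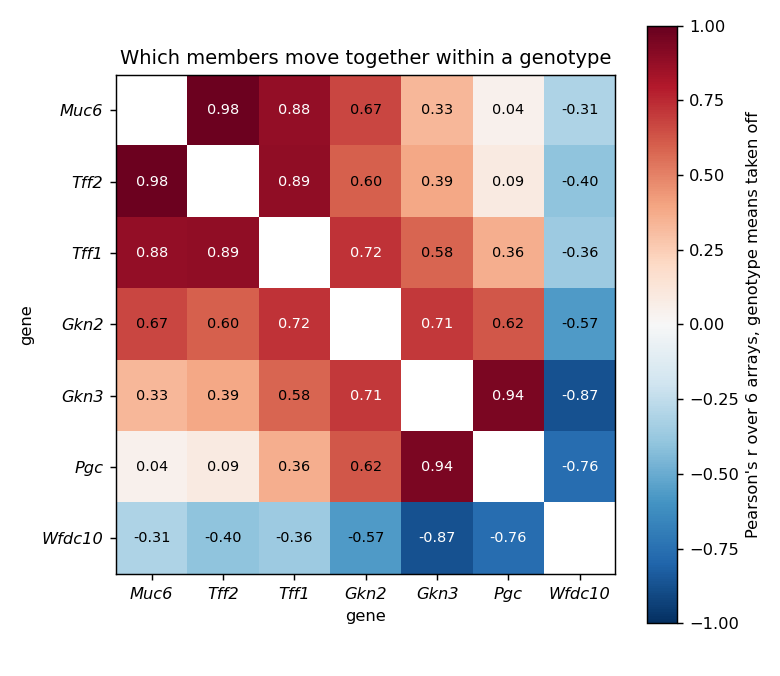
Pearson's r between each pair of the 7 genes over the 6 arrays after the genotype means were taken off, with red for positive and blue for negative values. Muc6, Tff2 and Tff1 form a block from 0.88 to 0.98, and Gkn3 and Pgc share 0.94. Every value in the row of Wfdc10 is below 0. That sign turned when the arrays farthest from the median of the partner gene were left out.

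Other tested genes were ranked by likeness to the members' mean deviation if their SD within a genotype was at least the median of all tested genes. Predicted genes without a name, olfactory and vomeronasal receptors and small RNAs were left out. Of the 6036 genes so ranked, the 5 most like the members' mean deviation were Bbs7 and Zfp160 (r = 0.989 each), Fdft1 (0.985), Il17rb (0.977) and Tecpr1 (0.972), over 6 arrays. That mean follows Muc6 and Tff2, each at r = 0.99 with it, whereas Pgc had r = 0.16 and Wfdc10 -0.42. The spread within a genotype was 0.36 for Il17rb, the receptor for interleukin 25, and 0.15 to 0.19 for the other 4, so none of the 5 varied as widely as Muc6 (1.11) or Tff2 (1.37). Their differences between genotypes lay between -0.10 and 0.04. With 6 arrays, 13 of the ranked genes exceeded r = 0.95, and the likeness is a description only.

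The start regions of the members were searched for short motifs. RefSeq sequences of GRCm38.p6, from 250 bases before to 50 after the start, were at hand for 5 members, Gkn2, Gkn3, Muc6, Pgc and Wfdc10, and those of Tff1 and Tff2 were not used here. The 4 printed below belong to the widely varying Muc6, to both gastrokines and to Wfdc10. Capitals mark GATAA on either strand (TTATC where it lies on the other), the core read by GATA factors such as GATA4 and GATA6 of the stomach and proximal intestine, and the TATA-like letters TATAAA or TATATA on the gene's strand. In their order they lie at chr7:141655344-141655643 (minus strand), chr6:87373115-87373414 (plus), chr6:87388886-87389185 (minus) and chr2:164655796-164656095 (plus), and each is written along the gene's strand.
Muc6: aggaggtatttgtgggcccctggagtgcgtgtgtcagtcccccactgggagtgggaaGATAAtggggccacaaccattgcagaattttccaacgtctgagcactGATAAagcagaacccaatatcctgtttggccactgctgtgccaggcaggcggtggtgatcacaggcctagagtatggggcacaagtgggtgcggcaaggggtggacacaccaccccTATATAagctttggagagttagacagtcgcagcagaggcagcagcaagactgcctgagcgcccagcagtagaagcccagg
Gkn2: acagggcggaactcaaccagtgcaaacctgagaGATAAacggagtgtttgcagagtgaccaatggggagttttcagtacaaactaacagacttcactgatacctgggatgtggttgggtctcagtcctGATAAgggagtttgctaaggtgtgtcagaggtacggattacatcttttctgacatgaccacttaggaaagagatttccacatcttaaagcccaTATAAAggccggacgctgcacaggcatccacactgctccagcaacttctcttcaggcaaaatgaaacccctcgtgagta
Gkn3: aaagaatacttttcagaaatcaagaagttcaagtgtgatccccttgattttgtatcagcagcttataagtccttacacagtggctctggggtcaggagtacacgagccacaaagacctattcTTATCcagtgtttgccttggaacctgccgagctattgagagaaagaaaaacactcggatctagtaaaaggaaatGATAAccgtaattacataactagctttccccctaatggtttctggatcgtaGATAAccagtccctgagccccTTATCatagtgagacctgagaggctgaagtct
Wfdc10: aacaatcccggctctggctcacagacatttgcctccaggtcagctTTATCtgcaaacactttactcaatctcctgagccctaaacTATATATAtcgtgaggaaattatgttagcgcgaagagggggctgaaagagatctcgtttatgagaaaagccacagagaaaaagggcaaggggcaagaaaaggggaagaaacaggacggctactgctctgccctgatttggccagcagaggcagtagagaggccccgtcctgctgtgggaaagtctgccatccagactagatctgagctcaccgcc

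GATAA occurred 4 times in the Gkn3 window, 2 times in each of the Gkn2 and Muc6 windows, 1 time in that of Wfdc10 and 0 times in that of Pgc. Of 32851 such windows in the RefSeq table, 25.4% held it at least once, 5.27% at least 2 times and 0.938% at least 3 times. A TATA-like match began at position -29 in Gkn2, at -30 in Muc6 and at -31 in Pgc, counted from 1 at the first transcribed base with no 0, and 12.5% of all windows held such letters anywhere. In Wfdc10 the matches, which overlap, began at -165 and -163, and in Gkn3 there were 0. The letters AGGTCA, read by several nuclear receptors, was found on either strand in 1 member, Wfdc10, at -214, and in 16.3% of all windows. The direct repeat with a spacer of 3 bases, the usual binding form of the vitamin D receptor with its RXR partner, was in 0 of the 5 windows and in 0.0396% of all windows, searched on both strands by its consensus. These are matches of letters in a short window and say nothing of binding.

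Genes of the same families that lie beside the members had differences between -0.16 (Gkn1) and 0.14 (Wfdc9). Gkn1, Gkn2 and Gkn3 follow each other on chromosome 6, and Tff3, Tff2 and Tff1 lie together on chromosome 17. Tff3, the trefoil peptide of intestinal goblet cells, read 11.31, 11.31 and 11.38 on VDR-null arrays and 11.36, 11.25 and 11.15 on wild-type arrays. Its difference was 0.08 ± 0.09 (SE; limma adjusted p = 0.766), next to -1.47 for the adjacent Tff2. Muc6 is followed on chromosome 7 by Muc2, the goblet cell mucin, with 12.29, 12.30 and 12.42 on VDR-null arrays and 12.53, 12.32 and 12.29 on wild-type arrays (difference -0.04; limma adjusted p = 0.888). The next gene, Muc5ac, the surface mucin of the stomach that accompanies TFF1 there, was dim on all arrays, between 4.35 and 4.51.

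Other genes of the gland, of the stomach lining and of neighbouring tissues were taken from 11 lists, and 129 of their 135 genes were represented by a single-symbol probe set. In the list of mucous gland products and mucin glycosylation, 7 of 16 genes were tested, 5 of them higher and 2 of them lower in VDR-null mice, and 0 passed the limma threshold (median difference 0.23). The median was 0.13 without VDR-null replicate 1, 0.15 without wild-type replicate 1 and 0.10 without both. St3gal4, a sialyltransferase, differed by 0.48 ± 0.24 (SE; limma adjusted p = 0.683), Gcnt3, a branching enzyme of mucin glycans, by 0.30 ± 0.12, and Gcnt4 by 0.26 ± 0.13. The other higher genes, Galnt6 (0.23 ± 0.15) and Gcnt1 (0.09 ± 0.15), are glycosylation enzymes too. The 2 lower genes, Aqp5 (-0.17 ± 0.13) and Dmbt1 (-0.11 ± 0.13), are not, so the median describes mainly the enzymes. A4gnt, which caps the MUC6 glycans of gland mucus, and Egf, a known product of Brunner glands, were dim on all 6 arrays. Wfdc2, a WFDC gene in the same list, was too dim to be tested but read 4.69, 4.66 and 4.83 on VDR-null arrays and 5.11, 5.39 and 5.45 on wild-type arrays, a gene picked out after its values were seen.

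Of the 12 genes of gastric surface cells 5 were tested, 3 higher and 2 lower, with a median of 0.22 and 0 past the threshold. Ctse, the aspartic protease cathepsin E, differed by -0.62 ± 0.41 (SE; limma adjusted p = 0.683), Fer1l6 by 0.35 ± 0.15 and Capn9, a calpain of the digestive tract, by 0.28 ± 0.15. The stomach markers Psca, Cldn18, Anxa10 and Vsig1 were dim on all arrays.

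Of the 14 markers of parietal and chief cells, the acid and pepsin producers of the stomach body, 7 were dim on all arrays, among them the gastric lipase Lipf, pepsinogen Pga5 and Chia1. The proton pump subunit Atp4a read 5.25, 5.30 and 5.11 on VDR-null arrays and 4.94, 5.24 and 5.44 on wild-type arrays, at the dim level. Of the 5 tested genes 2 were higher and 3 lower and 0 passed (median -0.04, and -0.12 without wild-type replicate 1). Aqp4 had the largest difference, -0.43 ± 0.30, followed by Kcnq1 at -0.32 ± 0.22 and Ckb at 0.32 ± 0.22 (SE; limma adjusted p from 0.684 to 0.687), and none of these is particular to the stomach. Gastrin, Gast, the hormone of antral G cells, read 5.65, 5.94 and 5.81 on VDR-null arrays and 5.98, 5.97 and 6.08 on wild-type arrays, separate by 0.04 (difference -0.21 ± 0.10, SE; limma adjusted p = 0.683). Among the 6 tested hormone genes 3 were higher and 3 lower, with Cck at 0.23 ± 0.12 and Ghrl, the ghrelin gene, at -0.17 ± 0.16.

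Transcription factors of the antrum, pylorus and proximal duodenum split evenly, with 7 of 14 tested genes higher, 7 lower, a median of -0.01 and 0 past the threshold. Pdx1, which marks the antrum and proximal duodenum, differed by 0.18 ± 0.14, Gata4 by 0.01 ± 0.13 and Gata6 by 0.17 ± 0.14 (SE; limma adjusted p from 0.691 to 0.978). Nkx6-3, a factor of the gastric antrum, had the largest difference, -0.56 ± 0.50, followed by Foxq1, needed for mucin in gastric surface cells of the mouse, at 0.48 ± 0.49. Sox2, of the stomach, was dim on all arrays. In the WFDC family, 5 of 19 other genes were tested, 2 higher and 3 lower, between -0.15 (Wfdc1) and 0.26 (Wfdc15b), with 0 past the threshold. Their median was -0.05, and 0.11 without VDR-null replicate 1. Wfdc13, which lies close to Wfdc10, differed by -0.05 ± 0.12, and Slpi, a protease inhibitor of mucosal surfaces, by 0.06 ± 0.25.

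**Figure D4:**
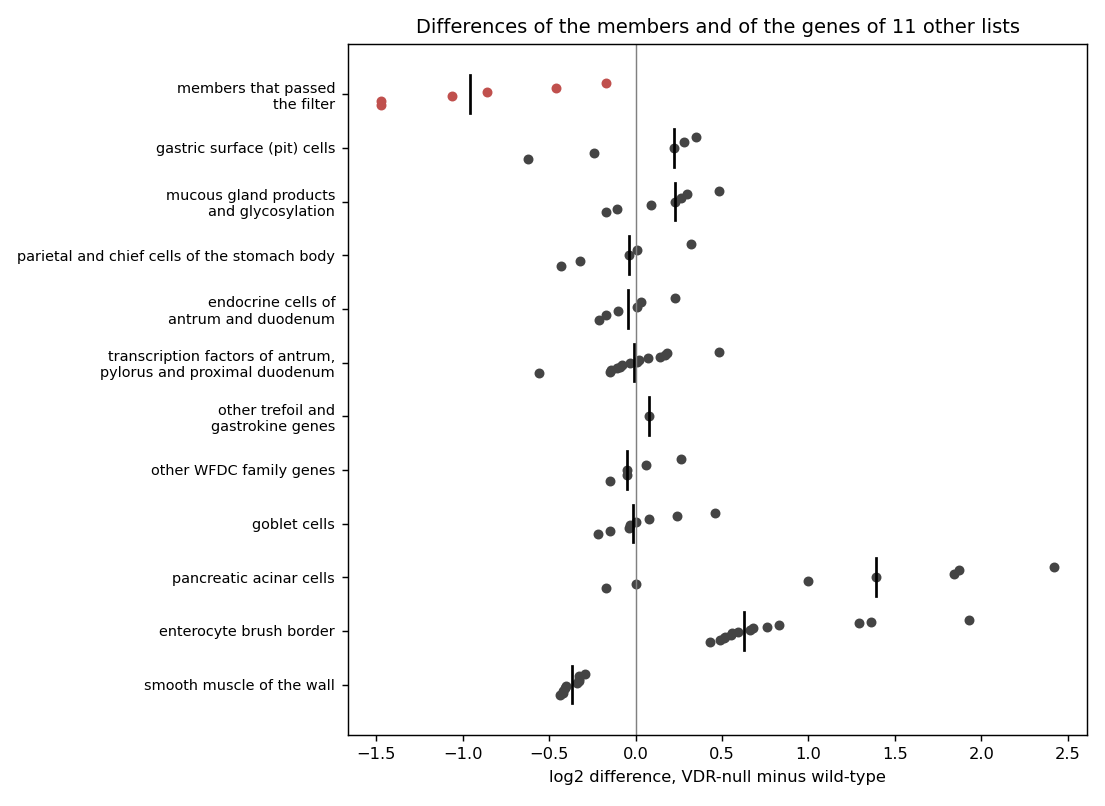
Log2 difference, VDR-null minus wild-type, of the members that passed the filter (red) and of the tested genes of 11 lists (dark grey), 1 point per gene, with a vertical bar at each median. The members lie between -1.47 and -0.17, and they were chosen with the difference already known for at least some of them. The lists of stomach cells, mucous gland products with mucin glycosylation, transcription factors, WFDC genes and goblet cells have medians between -0.05 and 0.23.

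Markers of other cell types and tissue layers were read on the same arrays. Goblet cell genes split into 4 higher and 4 lower of 8 tested (median -0.01, and 0.17 without both replicate 1 arrays), with Zg16 at 0.46 ± 0.21, Clca1 at 0.24 ± 0.15 and Agr2 at -0.22 ± 0.20 (SE). All 14 brush border genes had higher and all 10 smooth muscle genes had lower means in VDR-null duodenum, and 0 of either list passed the limma threshold. Every VDR-null array lay below every wild-type array in 5 smooth muscle and 0 brush border genes, and in 6.22% of all tested genes. Every VDR-null array lay above every wild-type array in 0 smooth muscle genes and 1 brush border gene. Over all tested genes, the genotypes did not overlap in either direction in 11.1%. The medians were 0.62 for brush border genes, 0.06 without both replicate 1 arrays, and -0.37 for smooth muscle genes, -0.28 without them. The largest differences were those of Lct (1.93 ± 1.22, SE), Slc2a2 (1.36 ± 0.84) and Treh (1.29 ± 0.85) in the first list and of Cnn1 (-0.44 ± 0.19), Synpo2 (-0.42 ± 0.12) and Tagln (-0.42 ± 0.13) in the second.

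Relative to each gene's mean over the 6 arrays, smooth muscle genes averaged -0.19, -0.17 and -0.19 on VDR-null arrays and 0.30, -0.14 and 0.40 on wild-type arrays. Wild-type replicate 2 was close to the VDR-null arrays in this measure. Wild-type replicate 3 had the highest muscle level and the lowest Muc6 and Tff2 of its group. Wild-type replicate 1, next in muscle level, had the highest Muc6 and Tff2 of all arrays. Without both replicate 1 arrays, Gkn3 differed by -0.88, Wfdc10 by -0.98, Pgc by -0.37 and Tff1 by -0.17. The part that the brush border and wall muscle levels have in the members' differences was not tested.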

How the data were processed

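Duodenal RNA of 3 VDR-null and 3 wild-type mice was hybridised to Affymetrix Mouse Gene 2.0 ST arrays, per the labels. Per the submitters' processing notes, the authors used RMA and Affymetrix Expression Console, and the deposited table holds a log2 signal for each probe set on each array. RMA corrects background, quantile-normalizes arrays and summarises probes. No source used here says if the arrays were normalized as 1 set. Of 41345 probe sets 23521 had 1 gene symbol and were used, 1814 had several and 16010 none. The probe set with the highest mean stood for each of 22180 genes. For 2 list genes the list held an older symbol, which was matched to the current one in the annotation.

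Members, lists and the rule for named genes were chosen with earlier results of these data known. The rule names every member, Vdr, in each list up to 3 tested genes with the largest difference, family neighbours, and the 5 genes most like the members' mean deviation; further genes are named where a sentence says why or as defining markers. The whole table was fitted with limma 3.58.1 in R 4.3.3 (two-sided, no covariate, Benjamini-Hochberg over 13174 genes, threshold 0.05), after a check on simulated data. Pairs were tested by exact permutation within genotypes. Alternatives were other filters, scalings, probe set rules and priors, a replicate block, all probe sets and each array left out. Nothing in the labels ties same-numbered mice. The number of arrays limits the precision.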

Additional observations from a re-analysis of the deposited data

How the results depend on the processing

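All 7 members were lower in VDR-null duodenum under the other scalings and with each array or both replicate 1 arrays left out. The other filters and the mean of probe sets could not change this. A filter leaves the values of a gene as they are, and each member has 1 probe set. The members were not counted anew with other priors or all probe sets. The median of those that passed the filter, -0.96 with all arrays, lay between -0.99 and -0.90 when 1 array was left out and was -0.86 with no filter. The number of members without overlap between genotypes was 4 and ranged from 4 to 7 when 1 array was left out. It was 7 without wild-type replicate 3 and 6 without VDR-null replicate 1, and the reduced number of arrays alone makes overlap less likely. The limma count was 0 in each fit, also at an adjusted p of 0.10, with all probe sets and with trend or robust priors, while the number of genes at an unadjusted p below 0.05 ran from 284 without wild-type replicate 1 to 1569 without VDR-null replicate 3. With the replicate block the count was 0, with 338 at an unadjusted p below 0.05. The median stayed at -0.96, which a block cannot change in this balanced design. Same-numbered arrays correlated at -0.62, 0.19 and -0.26 in their deviations. Without a reference for these values, they cannot decide whether same-numbered mice were linked. Of the 21 pairs 4 had r above 0.8. Without the 2 arrays farthest from the median of 1 gene of each pair, the one named first below, 3 did, but not the same pairs. Muc6 with Tff2 (0.94) and with Tff1 (0.84) remained, and Gkn3 with Pgc (0.62) and Tff1 with Tff2 (0.54) did not. Gkn3 with Wfdc10, at -0.87 with all arrays, turned to 0.99. Which pairs remain may depend on which gene picks the arrays, and picking by the other gene was not tried. Tff1, Gkn2 and the lower Muc6 signals lie near background, which limits what their differences can show.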

Other observations

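Retnlb, an antimicrobial protein of goblet cells, was high on the same single array as Gkn2. It read 4.35, 3.73 and 4.43 on VDR-null arrays and 6.17, 4.08 and 3.66 on wild-type arrays, so that wild-type replicate 1 alone was above the dim level. It is named because its values were seen to resemble those of Gkn2, and wild-type replicate 1 was also the array with the lowest brush border genes.

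Transcripts of acinar cells of the pancreas, an organ that lies against the duodenum, were read on the same arrays. Of the 17 genes 13 had a probe set and 7 were tested, 5 of them higher and 2 lower in VDR-null duodenum, with a median difference of 1.39 and 0 past the limma threshold. Relative to each gene's mean over the 6 arrays they averaged 0.04, -0.47 and 2.22 on VDR-null arrays and -0.15, -0.80 and -0.84 on wild-type arrays, so the highest level by far was on VDR-null replicate 3. The chymotrypsinogen Ctrb1 read 8.57, 7.24 and 11.06 on VDR-null arrays and 7.19, 6.19 and 6.22 on wild-type arrays. Carboxypeptidase Cpa1 read 6.78, 5.91 and 10.11 on VDR-null arrays and 5.87, 5.55 and 5.78 on wild-type arrays, and the trypsinogen Try4 differed by 1.84 ± 0.83 (SE; limma adjusted p = 0.683). On that array Gkn3 and Pgc had their highest VDR-null values, Tff2 was also above its genotype mean, and Muc6 and Wfdc10 were below theirs. Whether pancreatic tissue has a part in any difference of the members was not tested.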
